A study of Mus musculus with 9 samples.

Results

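The high mobility group (HMG) genes are described here across RNA-sequencing libraries of mouse lung cells. The 8 genes are Hmgn1, Hmgn2, Hmgn3, Hmgn5, Hmgb1, Hmgb2, Hmgb3 and Hmga1, of 55851 genes in the deposited table. They were found by gene symbol, each symbol had a single identifier, and all 8 were among the 17716 genes that passed a filter on low values. The set was chosen after Hmgn2 had been seen to be far lower in the knockout libraries. Its values in comparisons with those libraries are therefore a description, given without a p-value.

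Libraries were made from total RNA of lung cells of female C57BL/6J mice, with the time label 7 weeks for all, in 3 groups of 3 libraries. The first group, DJ-1 KO OVA, holds libraries DJ1_KO_OVA_263, DJ1_KO_OVA_266 and DJ1_KO_OVA_267 of DJ-1 knockout mice after ovalbumin challenge. The second, WT OVA, holds libraries 5, 6 and 9 of wild-type mice after the same challenge, and the third, WT PBS, holds libraries 1, 2 and 3 of wild-type mice after a phosphate-buffered saline (PBS) challenge. Ovalbumin challenge is a model of allergic airway inflammation, and DJ-1, encoded by Park7, protects cells against oxidative stress. No knockout library with saline was analysed here, so the knockout was compared under ovalbumin alone, and DJ-1 KO OVA against WT PBS differs in both genotype and challenge. The labels do not say how the knockout was made or whether each library is 1 animal, so the spread between libraries may be technical.

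HMG proteins are abundant, non-histone proteins of chromatin. HMGN proteins bind nucleosomes directly and compete with linker histone H1, which loosens chromatin. HMGB proteins bend DNA through HMG-box domains, and HMGB1 also leaves cells as an alarm signal in inflamed lung. HMGA1 binds the minor groove of AT-rich DNA through AT-hook motifs and is highest in dividing and immature cells.

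The 9 libraries held 20812192 to 29080130 reads, recovered from the deposited values. Values are FPKM, reads divided by gene length and by library size, so levels of different genes can be compared. Park7 averaged 5.08 ± 1.92 FPKM in DJ-1 KO OVA, against 57.2 ± 3.78 FPKM in WT OVA and 46.7 ± 8.91 FPKM in WT PBS (SD, n = 3 each), so the knockout labels fit the level of the targeted gene. Markers of 11 lung and immune cell types were detected, but Pdpn of alveolar type 1 cells and Epx of eosinophils were below the filter. Summed neutrophil markers (6 genes) ran from 1375 to 4354 FPKM in DJ-1 KO OVA, from 12937 to 19183 FPKM in WT OVA and from 8384 to 24453 FPKM in WT PBS. Summed alveolar type 2 markers (8 genes) ran from 6612 to 14151 FPKM in DJ-1 KO OVA, from 32939.5 to 42001 FPKM in WT OVA and from 25491 to 42409 FPKM in WT PBS. The part of these shifts in the values below was not tested, and fewer cells of a type and less RNA per cell cannot be told apart in bulk libraries.

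Hmgn2 (ENSMUSG00000003038) lies on the minus strand at chr4:133964738-133968650 (GRCm38.p6). Several other rows of the table have transcripts nearly identical to it, and a read from such a stretch has more than 1 possible origin. The coding sequences of Hmgn2 and of the 3 copies with the most reads, from the GENCODE M21 transcripts, are shown here. The size of the Hmgn2 difference given below depends on whether the copies' reads are counted with it. In Hmgn2 (coding bases from 133965538 to 133967809, introns removed) capitals mark the conserved nucleosome-binding core, coding bases 67 to 90. In Hmgn2-ps1 (chr5:84123313-84123591, plus strand) capitals mark 6 extra bases at positions 91 to 96. In Gm10357 (chr13:8289850-8290113, minus strand, the 256 bases aligned to Hmgn2) the capital marks the substitution G184A, Hmgn2 base first, counted from the first coding base of Hmgn2.
Hmgn2: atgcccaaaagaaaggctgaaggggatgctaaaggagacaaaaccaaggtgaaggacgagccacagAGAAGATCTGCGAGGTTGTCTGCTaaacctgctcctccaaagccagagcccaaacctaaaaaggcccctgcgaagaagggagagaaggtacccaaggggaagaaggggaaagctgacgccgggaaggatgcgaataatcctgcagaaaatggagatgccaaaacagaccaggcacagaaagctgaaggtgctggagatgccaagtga
Gm10282: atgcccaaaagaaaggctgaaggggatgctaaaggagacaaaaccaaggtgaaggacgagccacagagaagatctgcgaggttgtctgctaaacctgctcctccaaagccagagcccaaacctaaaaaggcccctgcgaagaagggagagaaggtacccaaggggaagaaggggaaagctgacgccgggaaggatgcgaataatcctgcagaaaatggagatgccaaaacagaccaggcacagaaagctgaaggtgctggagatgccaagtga
Hmgn2-ps1: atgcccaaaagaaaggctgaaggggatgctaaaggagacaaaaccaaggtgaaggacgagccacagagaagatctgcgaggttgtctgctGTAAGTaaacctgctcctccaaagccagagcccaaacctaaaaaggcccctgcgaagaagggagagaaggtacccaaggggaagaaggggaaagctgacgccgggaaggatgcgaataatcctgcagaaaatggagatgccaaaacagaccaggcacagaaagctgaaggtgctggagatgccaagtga
Gm10357: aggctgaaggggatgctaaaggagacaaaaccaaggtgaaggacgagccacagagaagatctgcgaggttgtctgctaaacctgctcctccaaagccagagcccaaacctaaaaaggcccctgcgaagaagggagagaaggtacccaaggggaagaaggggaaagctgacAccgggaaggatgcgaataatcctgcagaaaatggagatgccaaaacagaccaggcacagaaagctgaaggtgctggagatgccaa
Gm10282 (chr8:72304110-72305260, minus strand) is annotated as protein-coding and as a retrogene. Its 273 coding bases had 0 differences from those of Hmgn2, and its whole transcript of 1151 bases matched Hmgn2 at 99.3% with 6 mismatches and 2 gap bases. Hmgn2-ps1, a processed pseudogene, is identical over 279 bases to the coding part of a second annotated Hmgn2 transcript that holds the same 6 extra bases. The core shown in capitals is present in all 4 sequences, so it does not tell them apart by itself. The 6 extra bases of Hmgn2-ps1 follow it directly. Reads within the 273 coding bases shown for Hmgn2 and Gm10282 cannot be placed between these 2 rows by sequence alone.

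Hmgn2 was at 2.81, 2.57 and 1.72 FPKM in DJ-1 KO OVA, against 52.4, 35.9 and 47.5 FPKM in WT OVA and 38.8, 50.7 and 26.6 FPKM in WT PBS. All 3 knockout libraries lay below all 6 wild-type libraries, with no overlap. Hmgn2 averaged 2.37 ± 0.572 FPKM in DJ-1 KO OVA, 45.3 ± 8.48 FPKM in WT OVA and 38.7 ± 12.05 FPKM in WT PBS (SD, n = 3 each). The mean in WT OVA was 19.1 times that in DJ-1 KO OVA. The difference of DJ-1 KO OVA minus WT OVA was -4.00 on the log2(FPKM + 0.5) scale (SE 0.27, 95% interval -4.59 to -3.40). The recovered reads behind these values were 296, 186 and 129 in DJ-1 KO OVA, against 3079, 2517 and 2857 in WT OVA and 2537, 3182 and 2499 in WT PBS, so the row was reduced but not empty. Leaving out any 1 library gave differences between -4.15 and -3.82.

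**Figure D1:**
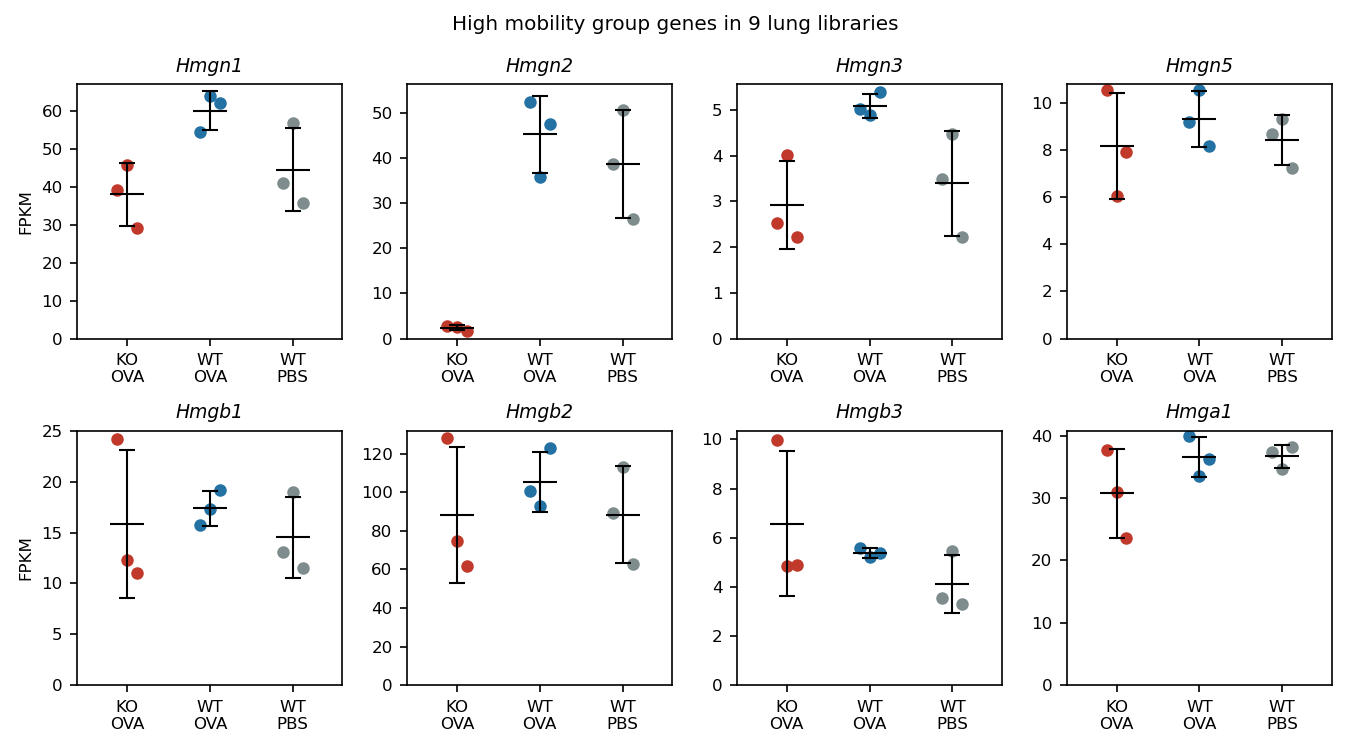
FPKM (vertical axes, from 0, each on its own scale) of the 8 HMG genes in the 3 libraries of each group, with the mean and SD in black. Hmgn2 is the gene whose knockout libraries, between 1.72 and 2.81 FPKM, sit far below the wild-type libraries, while most other panels overlap.

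The 3 most abundant near copies did not share this drop. Gm10282 was at 101.6, 80.4 and 63.0 FPKM in DJ-1 KO OVA, against 68.9, 73.8 and 115.4 FPKM in WT OVA and 79.4, 93.7 and 44.0 FPKM in WT PBS. The groups overlapped, and its difference of DJ-1 KO OVA minus WT OVA was -0.06 on the log2 scale (95% interval -0.78 to 0.66). Hmgn2-ps1 averaged 47.6 ± 14.7 FPKM in DJ-1 KO OVA, 27.8 ± 6.90 FPKM in WT OVA and 26.5 ± 11.9 FPKM in WT PBS, with a difference of 0.75 from WT OVA (95% interval -0.06 to 1.56). Gm10357 averaged 10.6 ± 3.45 FPKM in DJ-1 KO OVA, 7.25 ± 0.738 FPKM in WT OVA and 6.76 ± 1.62 FPKM in WT PBS.

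A pair of smaller copies differed in opposite directions. Gm6724, a processed pseudogene on chromosome 18, was at 3.81, 3.17 and 3.22 FPKM in DJ-1 KO OVA, and was at 0, 0.327 and 0.190 FPKM in WT OVA and at 0, 0.365 and 0 FPKM in WT PBS. Gm6750, a processed pseudogene on chromosome 12, was at 0.434, 0.158 and 0.153 FPKM in DJ-1 KO OVA, against 2.53, 1.47 and 2.47 FPKM in WT OVA and 1.57, 2.18 and 0.243 FPKM in WT PBS. Each of these rows rests on few reads over the 9 libraries, with 81 for Gm6724 and 64 for Gm6750.

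In all, 12 rows had a transcript matching Hmgn2 over at least 200 bases at 95% identity or more, and 8 of them held any read. Of the reads at Hmgn2 and these rows, Hmgn2 itself held 5.76%, 6.65% and 5.79% in DJ-1 KO OVA, against 63.8%, 53.5% and 49.6% in WT OVA and 53.4%, 55.9% and 59.1% in WT PBS. The Wilson 95% intervals for single libraries, which cover counting error only, had their upper bounds at 7.64% or less in DJ-1 KO OVA and their lower bounds at 48.3% or more in the wild-type libraries. This share does not depend on the scaling between libraries. Hmgn2 and its copies together held 120 ± 29.2 RPM (reads relative to library size) in DJ-1 KO OVA, 250 ± 43.8 in WT OVA and 212 ± 70.4 in WT PBS (SD, n = 3 each), where the copies alone held 112 ± 27.5, 111 ± 31.5 and 94.0 ± 34.1.

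With the copies' reads added, the Hmgn2 difference of DJ-1 KO OVA minus WT OVA was -1.07 on the log2 scale (95% interval -1.71 to -0.42), a 2.09-fold lower level. Against WT PBS it was -0.79 (95% interval -1.44 to -0.14), compared with -3.74 for the Hmgn2 row alone. The size of the Hmgn2 difference therefore depended on whether the copies' reads were counted with it. This alternative was chosen after the values had been seen. The sources used here do not give how the authors' counting treated reads with several possible origins, and its part in the Hmgn2 value was not tested.

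**Figure D2:**
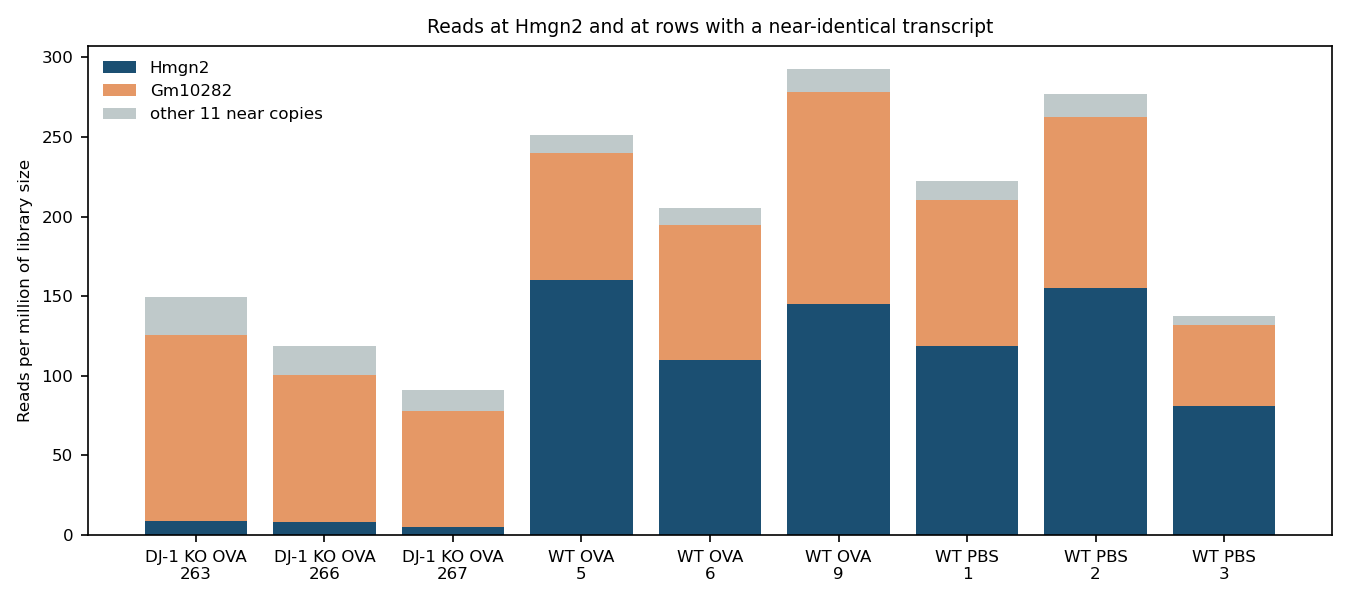
Reads relative to library size (RPM, vertical axis) at the Hmgn2 row, at Gm10282 and at the other 11 near copies, stacked for each of the 9 libraries. The Hmgn2 segment falls between 5.27 and 8.60 RPM in the DJ-1 KO OVA libraries and between 81.3 and 160 in the wild-type libraries, while the Gm10282 segment is of similar height in all groups.

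For the other members with near copies, the share of reads at the gene's own row was similar in all groups. Hmgb1 has 71 near copies, of which 36 held reads, and its own row held 45.7% ± 2.13 of the summed reads in DJ-1 KO OVA, 44.9% ± 0.452 in WT OVA and 46.3% ± 1.21 in WT PBS (SD, n = 3 each). The most abundant copies of Hmgb1 were the processed pseudogenes Gm5518, Gm5527 and Hmgb1-ps2, and Gm5518 averaged 65.7 ± 22.1 FPKM in DJ-1 KO OVA, 78.7 ± 6.96 FPKM in WT OVA and 59.6 ± 16.1 FPKM in WT PBS. The own share was 87.9%, 88.2% and 87.2% for Hmgn5, and 89.4%, 89.0% and 90.5% for Hmga1, in DJ-1 KO OVA, WT OVA and WT PBS. It was 92.6% to 99.3% in every group mean for Hmgb2, Hmgb3 and Hmgn1, and Hmgn3 had 0 near copies.

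**Figure D3:**
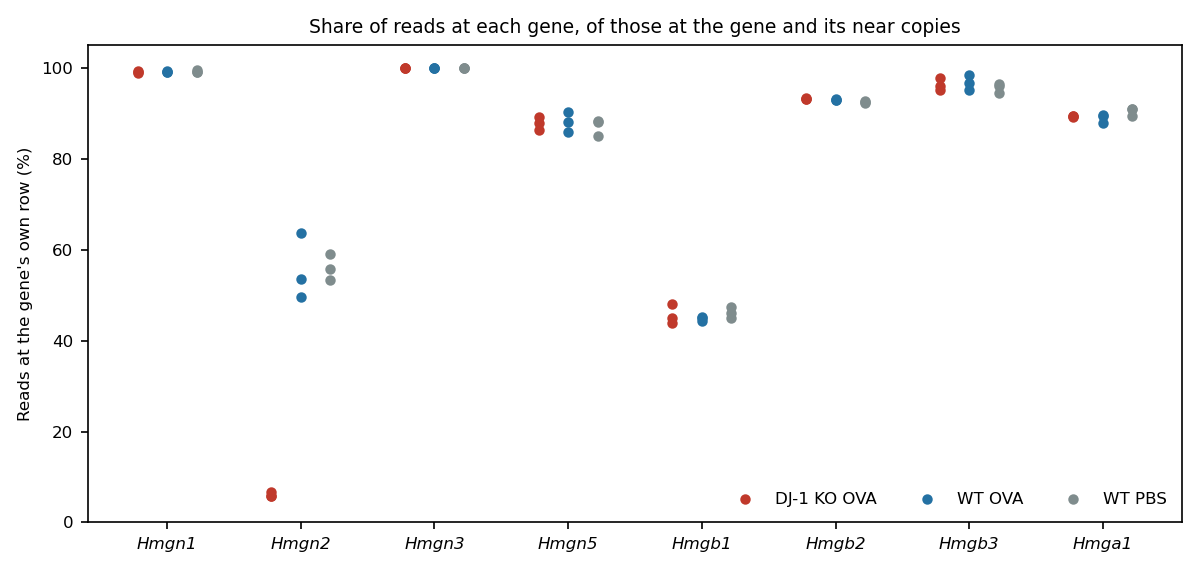
Percent of reads at each gene's own row (vertical axis), of those at the row and its near copies, with a point for each library coloured by group. Hmgn2 is the gene whose DJ-1 KO OVA points, between 5.76% and 6.65%, stand apart from both wild-type groups.

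Hmgn1, a close relative of Hmgn2, was at 39.1, 45.6 and 29.2 FPKM in DJ-1 KO OVA, against 54.3, 63.7 and 62.1 FPKM in WT OVA and 41.0, 56.7 and 35.6 FPKM in WT PBS. The ovalbumin groups did not overlap, and the knockout overlapped WT PBS. Hmgn1 averaged 38.0 ± 8.28 FPKM in DJ-1 KO OVA, 60.0 ± 5.06 FPKM in WT OVA and 44.5 ± 10.97 FPKM in WT PBS, with DJ-1 KO OVA minus WT OVA at -0.67 on the log2 scale (SE 0.24).

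Hmgn3, which is known in mouse for its expression in endocrine and neural cells, was at 2.52, 4.01 and 2.23 FPKM in DJ-1 KO OVA, against 5.02, 4.88 and 5.39 FPKM in WT OVA and 3.48, 4.48 and 2.21 FPKM in WT PBS. WT OVA lay above both other groups, with no overlap. The difference of DJ-1 KO OVA minus WT OVA was -0.74 (SE 0.26). Hmgn5, the X-linked member with a long acidic tail, was at 10.5, 6.07 and 7.91 FPKM in DJ-1 KO OVA, against 9.19, 10.5 and 8.18 FPKM in WT OVA and 8.69, 9.29 and 7.23 FPKM in WT PBS. These groups overlapped throughout, with a difference of -0.20 (SE 0.22) from WT OVA.

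Hmgb1 was at 24.2, 12.3 and 11.03 FPKM in DJ-1 KO OVA, against 15.8, 17.3 and 19.2 FPKM in WT OVA and 13.1, 19.0 and 11.5 FPKM in WT PBS. Hmgb2, which is high in dividing cells, was at 128.2, 75.0 and 61.8 FPKM in DJ-1 KO OVA, against 100.6, 92.7 and 123 FPKM in WT OVA and 89.4, 113 and 62.7 FPKM in WT PBS. Hmgb3, an X-linked member known from blood stem cells in mouse, was at 9.99, 4.85 and 4.87 FPKM in DJ-1 KO OVA, against 5.60, 5.20 and 5.37 FPKM in WT OVA and 3.56, 5.45 and 3.29 FPKM in WT PBS. For all 3 genes library DJ1_KO_OVA_263 was the highest of the 9 libraries, and the other knockout libraries lay below every WT OVA library. The differences of DJ-1 KO OVA minus WT OVA were -0.22 (SE 0.30) for Hmgb1, -0.31 (SE 0.31) for Hmgb2 and 0.19 (SE 0.28) for Hmgb3. Without library DJ1_KO_OVA_263 they were -0.56, -0.62 and -0.13, so Hmgb3 changed sign with that library.

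Hmga1 was at 37.7, 31.0 and 23.5 FPKM in DJ-1 KO OVA, against 39.9, 33.5 and 36.2 FPKM in WT OVA and 37.4, 34.6 and 38.1 FPKM in WT PBS. The groups overlapped, and the wild-type groups were nearly equal, with 36.6 ± 3.22 FPKM in WT OVA and 36.7 ± 1.86 FPKM in WT PBS (SD, n = 3 each). The difference of DJ-1 KO OVA minus WT OVA was -0.27 (SE 0.21).

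By level, Hmgb2 was the highest of the 8 genes in each of the 9 libraries. In WT OVA it was followed by Hmgn1, by Hmgn2 and Hmga1, whose ranges overlapped, and by Hmgb1 and Hmgn5, with Hmgb3 and Hmgn3 lowest and overlapping. WT PBS had the same order, with overlapping ranges for Hmgn1, Hmgn2 and Hmga1. In DJ-1 KO OVA, Hmgn2 was at the foot of the order beside Hmgn3, with overlapping ranges, and Hmgb1 reached into the range of Hmga1 through library DJ1_KO_OVA_263. This order counts each gene's own row, which in WT OVA held 55.7% ± 7.34 of the reads at Hmgn2 and its copies and 44.9% ± 0.452 of those at Hmgb1 and its copies (SD, n = 3 each), so it does not rank these genes with their copies' reads.

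Of the 8 genes, 1 passed an adjusted p of 0.05 (limma, Benjamini-Hochberg over all tested genes) between DJ-1 KO OVA and WT OVA, which was Hmgn2, lower. Over all genes tested, 14.2% were called in that comparison (8.24% lower and 5.93% higher), and since the set was chosen on it the count is a description. The ranges of 3 members did not overlap (Hmgn1, Hmgn2 and Hmgn3), beside 37.2% of all genes. Without library DJ1_KO_OVA_266, Hmgn1 and Hmgn3 were also called. The median difference of the members was -0.29, beside 0.00 for all genes tested. Between DJ-1 KO OVA and WT PBS the same single gene was called, beside 8.54% of all genes (4.47% lower and 4.07% higher), and 1 member did not overlap, beside 25.6% of all genes. Both comparisons use the same knockout libraries.

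The directions of 4 of the 8 members depended on how libraries were scaled. The deposited values set the median gene equal between libraries. Rescaling to equal FPKM sums moved the median of all genes by 0.52 between DJ-1 KO OVA and WT OVA, and the share of all genes called was then 25.7% higher and 3.53% lower. Under that scaling the differences from WT OVA were -3.54 for Hmgn2, -0.06 for Hmgn1 and -0.21 for Hmgn3, and they turned positive for Hmgn5 (0.40), Hmgb1 (0.39), Hmgb2 (0.30) and Hmga1 (0.35), with 0.79 for Hmgb3. Relative to the median gene, Hmgn2 was lower under both scalings. With equal sums and the copies' reads together, the Hmgn2 difference was -0.45 (95% interval -1.08 to 0.17) from WT OVA and -0.49 (95% interval -1.11 to 0.13) from WT PBS.

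The comparison of WT OVA with WT PBS asks how challenge alone altered these genes, and it was not used in choosing them. Of the 8 genes 0 passed in limma, 0 were below an unadjusted p of 0.05, and 0 passed in a limma-voom fit on recovered reads. Over all genes tested, limma called 0.00564%, which is a single gene, and limma-voom called 0. An unadjusted p below 0.05 (limma) was found for 1146 of the 17716 genes. The largest differences were 0.57 for Hmgn3 (SE 0.26, adjusted p = 0.73, limma) and 0.45 for Hmgn1 (SE 0.24, adjusted p = 0.73, limma). All 3 WT OVA libraries lay above the WT PBS libraries for Hmgn3, the 1 member whose ranges did not overlap, beside 14.8% of all genes. Hmgn2 differed by 0.25 (95% interval -0.34 to 0.85, adjusted p = 0.81, limma) and Hmga1 by -0.01 (95% interval -0.47 to 0.45, adjusted p = 0.99, limma). Hmgb1 and Hmgb2 each differed by 0.28, with adjusted p = 0.81 (limma) for both. Hmgb3 differed by 0.38 (adjusted p = 0.73, limma) and Hmgn5 by 0.14 (adjusted p = 0.87, limma). The signs for Hmgn2, Hmgn5, Hmgb1 and Hmgb2 turned with equal sums, which moved the median gene by -0.26.

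Hmgn2 and Park7 are on the same chromosome, with their starts 16.9 Mb apart, so the genes around them were counted. Within 20 Mb of Park7, leaving out Park7 and Hmgn2, 61 of 365 tested genes (16.7%) were called lower and 15 higher in DJ-1 KO OVA against WT OVA, while 8.04% of 16661 genes on other chromosomes were called lower. Against WT PBS the shares were 12.3% near Park7 and 4.33% on other chromosomes. With equal sums the split near Park7 turned round, with 94 genes called higher and 31 lower against WT OVA. The shares were 25.8% higher and 8.49% lower near Park7, and 25.6% higher and 3.45% lower on other chromosomes. By distance, 14.1% were called lower at 0 to 10 Mb from Park7, 19.9% at 10 to 20 Mb, where Hmgn2 lies, 10.2% at 20 to 30 Mb and 7.84% farther away. In WT OVA against WT PBS, 0 genes near Park7 were called lower by limma or limma-voom, and 14 of the 365 were lower at an unadjusted p below 0.05 (limma). Both fits called 0 of all 17716 tested genes lower, so the 0 near Park7 does not set these genes apart. Of all tested genes, 1146 had an unadjusted p below 0.05 in either direction (limma). That count joins both directions, so it is no background for the 14 lower genes. The count of 61 ran from 14 without library DJ1_KO_OVA_267 to 96 without library DJ1_KO_OVA_266. What lies behind these calls along the chromosome was not tested, and linked sequence differences and the loss of DJ-1 cannot be told apart in this design.

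**Figure D4:**
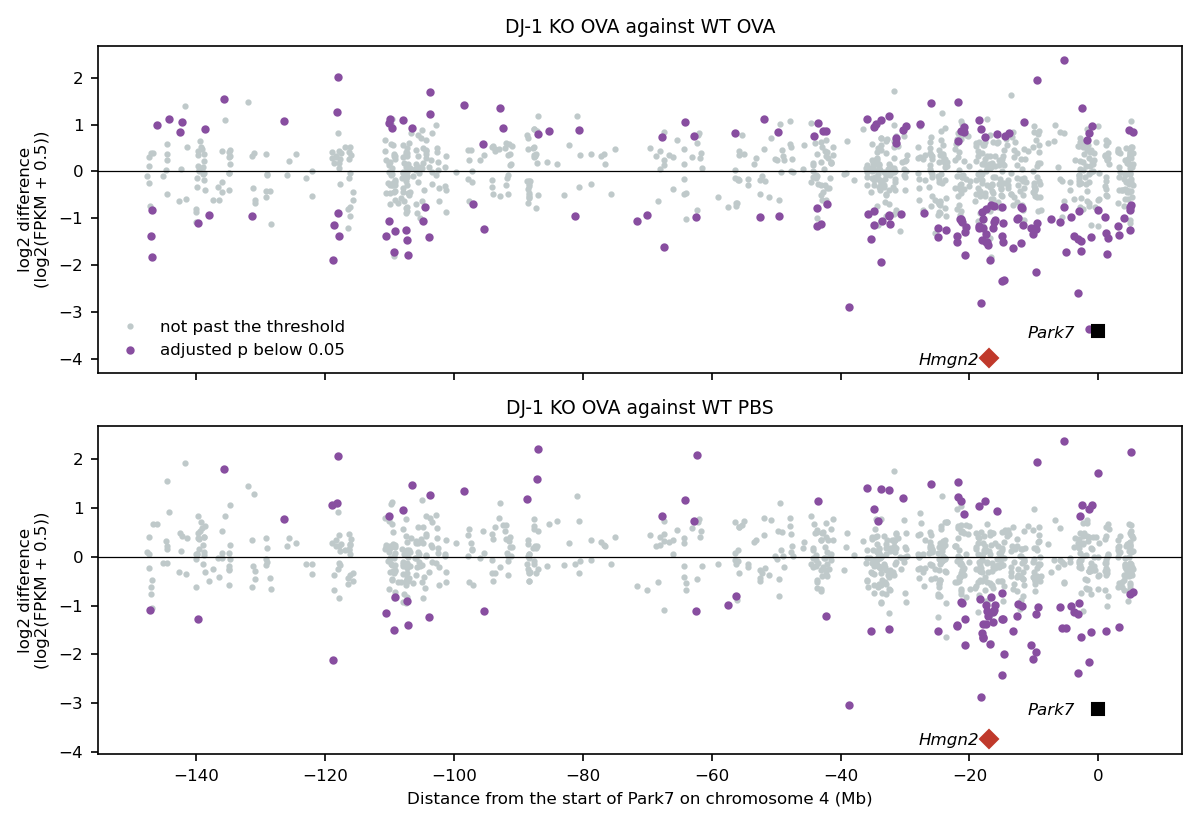
Log2 difference (vertical axis, log2(FPKM + 0.5)) of each tested gene on chromosome 4 against its distance in Mb from the start of Park7 (horizontal axis). The upper panel sets DJ-1 KO OVA against WT OVA and the lower against WT PBS. Purple points passed an adjusted p of 0.05; Hmgn2, at -4.00 and -3.74, is 16.9 Mb from Park7, in the stretch where 19.9% of genes were called lower against WT OVA.

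The nearest named neighbours of Hmgn2 were not called. Of the 5 tested genes on each side, 1 was called lower against WT OVA, beside 8.24% of all genes tested. It was an unnamed row that averaged 0.0271 ± 0.047 FPKM in DJ-1 KO OVA and 1.13 ± 0.563 FPKM in WT OVA. Dhdds, an enzyme of dolichol synthesis and the next gene to Hmgn2, averaged 12.8 ± 3.52 FPKM in DJ-1 KO OVA and 11.1 ± 1.43 FPKM in WT OVA, a difference of 0.16. Rps6ka1, a kinase on the other side, averaged 22.5 ± 5.64 FPKM in DJ-1 KO OVA and 20.3 ± 2.85 FPKM in WT OVA, a difference of 0.13. The neighbours nearest to the threshold without passing it were Arid1a and Cd52, in opposite directions. Arid1a, a subunit of a chromatin remodelling complex, averaged 15.3 ± 6.57 FPKM in DJ-1 KO OVA and 6.31 ± 0.396 FPKM in WT OVA, a difference of 1.12 (adjusted p = 0.052, limma). Cd52, a leukocyte surface protein, averaged 276.6 ± 147 FPKM in DJ-1 KO OVA and 701 ± 245 FPKM in WT OVA, a difference of -1.43 (adjusted p = 0.058, limma). Neither pair of groups overlapped. The groups of Pigv, Lin28a and the unnamed row did not overlap either, beside 37.2% of all genes without overlap.

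The gene whose log2 values followed Hmgn2 most closely over the 9 libraries was Park7 (Pearson r = 0.99 among 11479 genes). It was followed by Zfp984, a zinc finger gene on chromosome 4 (0.99), and by the chromosome 16 stefin genes Stfa1 (0.98), Stfa2l1 (0.98) and Cstdc5 (0.98), a family of cysteine protease inhibitors. Zfp984 averaged 0.995 ± 0.429 FPKM in DJ-1 KO OVA and 8.38 ± 1.07 FPKM in WT OVA, and Stfa2l1 averaged 15.2 ± 8.03 FPKM in DJ-1 KO OVA and 181 ± 40.2 FPKM in WT OVA. The lowest correlations were those of Sec23b, a coat protein of secretory vesicles (-0.99), Sqle, squalene epoxidase of cholesterol synthesis (-0.98), Mto1 (-0.98), Wdfy1 (-0.98) and Gfm1 (-0.98). These values are a description: the points share libraries and fall into knockout and wild-type clusters. For the other members the closest genes were Bex3 for Hmgn1 (0.99), Commd2 for Hmgn3 (0.99), Fam126b for Hmgn5 (0.91), the splicing factor gene Srsf3 for Hmgb1 and Hmgb2 (0.97 each), Zfp367 for Hmgb3 (0.98) and Arl5c for Hmga1 (0.94).

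Genes that act with HMG proteins were counted in lists. Over all genes tested, 5.93% were called higher and 8.24% lower in DJ-1 KO OVA against WT OVA, and 25.7% and 3.53% with equal sums. Of 26 tested other HMG-box and HMG family genes, 1 was called higher and 0 lower in DJ-1 KO OVA against WT OVA, with a median difference of 0.34 beside 0.00 for all genes. The gene called was Tox, a thymocyte factor, with 1.69 ± 1.06 FPKM in DJ-1 KO OVA and 0.419 ± 0.0071 FPKM in WT OVA. Summed T cell markers (7 genes) ran from 124 to 372 FPKM in DJ-1 KO OVA and from 74.9 to 120 FPKM in WT OVA, and their part in the Tox value was not tested. Hmga2 and Hmgb4 did not pass the filter on low values. Tox was not called against WT PBS (0.92, adjusted p = 0.094, limma). Against WT OVA the count was 0 without DJ1_KO_OVA_267, any 1 WT OVA library, WT PBS 1 or WT PBS 2, and 10 without DJ1_KO_OVA_266. With equal sums, 10 of the 26 were called higher and 0 lower, beside 25.7% and 3.53% of all genes.

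Among 12 chromatin enzymes and remodellers known to act with HMGN proteins, 1 was called in each direction (8.33% each), close to the shares over all genes of 5.93% higher and 8.24% lower. Hdac1, a histone deacetylase, was at 13.3, 9.75 and 9.21 FPKM in DJ-1 KO OVA, against 21.4, 20.5 and 25.3 FPKM in WT OVA, a difference of -1.03 (SE 0.20). Its groups did not overlap, and it was also called lower against WT PBS (-0.93, SE 0.20). Hdac1 lies on chromosome 4, within 5 Mb of Hmgn2. In that window 18.5% of tested genes were called lower against WT OVA, beside 8.04% on other chromosomes. The part of this position in the Hdac1 value was not tested. Smarca4, the ATPase of a chromatin remodelling complex, averaged 21.2 ± 5.95 FPKM in DJ-1 KO OVA and 9.31 ± 0.639 FPKM in WT OVA, a difference of 1.11 (SE 0.26). Its groups did not overlap there, but against WT PBS they overlapped and it was not called (0.74, adjusted p = 0.11, limma). The median of the list was 0.37, and with equal sums 5 were called higher, Smarca4 among them, and 0 lower, so the Hdac1 call was lost, beside 25.7% of all genes higher and 3.53% lower. The count of 2 calls was 0 without library DJ1_KO_OVA_267 or WT OVA 9, 1 without DJ1_KO_OVA_263, WT OVA 5 or WT OVA 6, and 6 without DJ1_KO_OVA_266.

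Of 20 linker histone, histone variant and chaperone genes, which share nucleosomes with HMGN proteins, 2 were called higher (10%) and 0 lower against WT OVA, beside 5.93% and 8.24% of all genes, with a median of 0.13. Asf1b, a histone chaperone of dividing cells, averaged 9.35 ± 2.42 FPKM in DJ-1 KO OVA and 4.18 ± 1.76 FPKM in WT OVA (difference 1.12, SE 0.29). Supt16, a subunit of the FACT chaperone, averaged 7.90 ± 3.22 FPKM in DJ-1 KO OVA and 3.60 ± 0.304 FPKM in WT OVA (difference 0.96, SE 0.27). H1f0, a linker histone, did not pass, with 47.9 ± 11.6 FPKM in DJ-1 KO OVA and 78.2 ± 4.48 FPKM in WT OVA. Asf1b was also called against WT PBS (1.38) and Supt16 was not (0.71, adjusted p = 0.13, limma). With equal sums 7 of the 20 were called higher and 0 lower, beside 25.7% and 3.53% of all genes. The count of 2 fell to 0 without any 1 of DJ1_KO_OVA_263, DJ1_KO_OVA_267, WT OVA 6, WT OVA 9 and WT PBS 1.

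The SET complex binds HMGB2, and of its 6 tested genes 1 was called higher (16.7%) and 0 lower against WT OVA, beside 5.93% and 8.24% of all genes, with a median of 0.30. Set itself, a histone chaperone, averaged 38.2 ± 5.51 FPKM in DJ-1 KO OVA and 23.8 ± 2.22 FPKM in WT OVA (difference 0.67, SE 0.18). It was not called against WT PBS (0.65, adjusted p = 0.053, limma), nor against WT OVA without any 1 of 6 libraries. With equal sums 5 of the 6 were called higher and 0 lower, beside 25.7% and 3.53% of all genes.

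Of 14 receptors, partners and adaptors of extracellular HMGB1, 4 were called lower (28.6%) and 1 higher (7.14%) in DJ-1 KO OVA against WT OVA, beside 8.24% and 5.93% of all genes, with a median of -0.35. Against WT PBS 2 were called lower (Tlr2 and Trem1) and 1 higher (Cxcl12), while Ager and Ly96 were not called. Against WT OVA the 5 calls fell to 2 without either of DJ1_KO_OVA_263 and DJ1_KO_OVA_267, any 1 WT OVA library or WT PBS 1, and to 3 without WT PBS 2 or WT PBS 3. The receptor gene Ager was at 122, 214 and 61.4 FPKM in DJ-1 KO OVA, against 283, 301 and 351 FPKM in WT OVA (difference -1.40, SE 0.42), with no overlap. Trem1, a receptor of myeloid cells, averaged 1.16 ± 0.443 FPKM in DJ-1 KO OVA and 3.90 ± 0.378 FPKM in WT OVA (difference -1.45, SE 0.22). The innate receptor Tlr2 differed by -0.83 (SE 0.24), and Ly96, the co-receptor of TLR4, by -1.11. Cxcl12, a chemokine that pairs with HMGB1, averaged 16.4 ± 1.22 FPKM in DJ-1 KO OVA and 6.77 ± 0.416 FPKM in WT OVA (difference 1.21, SE 0.17).

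Ager is also a marker of alveolar type 1 cells, whose 7 summed markers ran from 111 to 321 FPKM in DJ-1 KO OVA and from 430 to 542 FPKM in WT OVA. The neutrophil sums given above were likewise lower in DJ-1 KO OVA. Summed macrophage markers (6 genes) had a higher median there. They ran from 10413 to 31725 FPKM in DJ-1 KO OVA and from 2308 to 11997 FPKM in WT OVA, with overlap. Summed fibroblast markers (6 genes) were higher, as Cxcl12 was, and ran from 379 to 829 FPKM in DJ-1 KO OVA and from 252 to 282 FPKM in WT OVA. The part of these cell types in the 5 calls was not tested. With equal sums, 2 of the list were called higher (Cxcl12 and Tlr4) and 1 lower (Trem1), beside 25.7% and 3.53% of all genes.

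Genes of DNA replication and mitosis, beside which Hmgb2 and Hmga1 are usually high, were called higher for 17 of 23 and lower for 0 in DJ-1 KO OVA against WT OVA, beside 5.93% and 8.24% of all genes, with a median difference of 1.19, and 16 were called higher against WT PBS. Mcm3, a helicase subunit of replication, averaged 20.03 ± 5.33 FPKM in DJ-1 KO OVA and 6.13 ± 1.75 FPKM in WT OVA (difference 1.63, SE 0.26). Aurkb, a mitotic kinase, averaged 5.93 ± 2.40 FPKM in DJ-1 KO OVA and 1.42 ± 0.684 FPKM in WT OVA (difference 1.75, SE 0.32). The mean of the list on the log2 scale was 3.95, 2.90 and 3.05 in DJ-1 KO OVA, against 2.31, 1.60 and 2.17 in WT OVA and 1.90, 2.02 and 1.86 in WT PBS. Library DJ1_KO_OVA_263 was the highest of the 9 for this list as it was for Hmgb1, Hmgb2 and Hmgb3. All 3 knockout libraries lay above the wild-type libraries for the list, whereas Hmgb2 and Hmga1 overlapped between the groups. The count of 17 fell to 2 without WT OVA 6, to 3 without WT OVA 9 or DJ1_KO_OVA_267, and to 6 without WT OVA 5. All 23 were called higher with equal sums, beside 25.7% of all genes.

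In WT OVA against WT PBS, 0 of the 100 tested genes of the 6 lists were called by limma, by limma-voom or with equal sums, and 3 had an unadjusted p below 0.05 (limma). Each of these fits called at most 1 of all 17716 tested genes, and 1146 of them had an unadjusted p below 0.05 (limma). The list medians lay between -0.31 for the HMGB1 list and 0.17 for the replication and mitosis list.

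**Figure D5:**
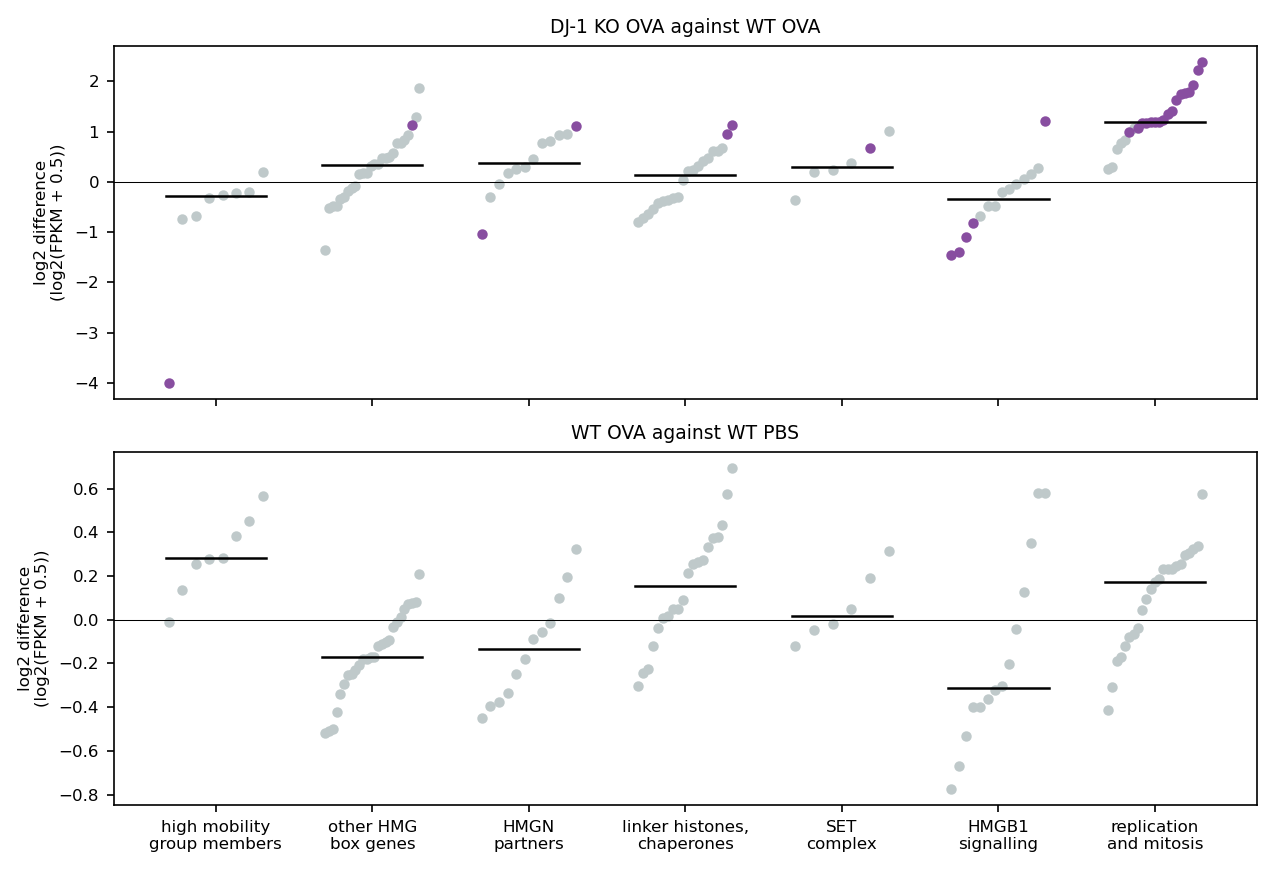
Log2 difference (vertical axes, log2(FPKM + 0.5), on different scales) of each tested gene of the 8 members and the 6 lists. The upper panel sets DJ-1 KO OVA against WT OVA, and the lower sets WT OVA against WT PBS. Purple points passed an adjusted p of 0.05 and black lines are medians; replication and mitosis genes have a median of 1.19 in the upper panel, while 0 points are purple in the lower panel.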

How the data were processed

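RNA of lung cells was sequenced in 9 libraries, with TruSeq RNA preparation per the labels' protocols. Trimmomatic, HISAT2, HTSeq and the build GRCm38.p6 are named in the submitters' processing notes; the sources used here give neither versions nor whether counting used strand. The deposited table holds FPKM per gene, per the file headers. FPKM times gene length was a whole multiple of 1 read for 100% of values (tolerance 0.01), so reads were recovered. The size the authors divided by was 0.890 to 1.21 times the recovered total.

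All 3 groups entered a fit with limma 3.58.1 in R 4.3.3 (variance trend) on log2(FPKM + 0.5) of 17716 genes whose mean FPKM reached 0.2, with 1 mean per group and 6 residual degrees of freedom. Calls used a Benjamini-Hochberg adjusted p below 0.05 over all tested genes. The log scale understates changes of low genes. With 3 libraries in each group, exact permutation has 0.1 as its smallest two-sided p, so none was used. Near copies are rows whose GENCODE M21 transcript matched a member in blastn 2.17.0 over at least 200 bases at 95% identity. The test was checked on simulated data in which all genes had the same setting for the spread between libraries. That check does not cover shifts in scaling or a library that stands apart.

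The members and lists were chosen with earlier results of these data known. Named genes were the members, Park7, up to 4 genes per list and comparison with the smallest p, the 5 nearest tested genes on each side of Hmgn2 and the closest correlates; Ly96 and the copies were named after their values were seen. Alternatives changed the pseudocount, filter, scaling, model, groups in the fit, libraries and the counting of near copies.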

Additional observations from a re-analysis of the deposited data

How the results depend on the processing

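The members were chosen on the knockout contrasts, so their calls there are described and no stability is read from them. In WT OVA against WT PBS, 0 members were called under the alternatives run, where at most 14 of all tested genes were called. With the copies' reads, an alternative added after the data had been seen, 0 members were called against WT PBS, where Hmgn2 was at -0.79, and with equal sums as well 0 were called in either knockout comparison (-0.45 against WT OVA, -0.49 against WT PBS). Leaving out 1 library in turn gave 1 to 3 called members against WT OVA, where a group left with 2 libraries borrows its spread from the others.

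In WT OVA against WT PBS, equal sums turned the signs of Hmgn2 (-0.055), Hmgn5 (-0.16), Hmgb1 (-0.023) and Hmgb2 (-0.030), and with the copies' reads as well Hmgn2 was at -0.036, Hmgn5 at -0.18 and Hmgb2 at -0.037. Hmga1, near 0, ran from -0.073 to 0.051 over left-out libraries, positive without WT OVA 6, WT PBS 1 or WT PBS 3, and was 0.015 with the copies' reads.

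Calls in lists against WT OVA with equal sums, then the range over left-out libraries, were 10 and 0 to 10 for other HMG genes, 5 and 0 to 6 for HMGN partners, 7 and 0 to 7 for linker histones and chaperones, 5 and 0 to 2 for the SET complex, 3 and 2 to 6 for the HMGB1 list, and 31 and 14 to 96 for genes lower near Park7. For replication and mitosis these were 23 and 2 to 18. Against WT PBS they were 1 and 0 to 6, 0 and 0 to 4, 1 and 0 to 4, 0 and 0 to 2, 3 and 1 to 7, 28 and 22 to 73, and for replication and mitosis 17 and 3 to 18. The library whose removal gave the lowest count differed between lists and was often tied with others, and the highest counts came without library DJ1_KO_OVA_266. The cause of these shifts was not tested.

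No paired analysis was possible because the groups share no replicate numbers. Summing several identifiers per symbol was not run, as each member has 1. Low genes rest on few reads, and copies cannot be separated by sequence where they are identical.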

Other observations

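Another gene of the same stretch of chromosome 4 has a copy elsewhere whose level differed, chosen after its values were seen. Nudc, a regulator of dynein and nuclear movement (chr4:133532542-133545996), averaged 52.0 ± 3.14 FPKM in DJ-1 KO OVA, 51.3 ± 3.93 FPKM in WT OVA and 47.0 ± 3.60 FPKM in WT PBS (SD, n = 3 each). Its pseudogene Nudc-ps1 on chromosome 8 was at 49.4, 50.8 and 42.1 FPKM in DJ-1 KO OVA, against 13.5, 16.8 and 14.1 FPKM in WT OVA and 11.4, 14.2 and 12.6 FPKM in WT PBS. All 3 knockout libraries lay above the wild-type libraries, and the difference was 1.65 against WT OVA and 1.86 against WT PBS on the log2 scale. The cause was not tested.

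Hmgn1 and Hmgn3 varied together over the 9 libraries (Pearson r = 0.94 on the log2 scale), as did Hmgb1 and Hmgb2 (r = 0.94). These are descriptions, since the libraries fall into groups and share their depth and scaling.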
